A study of Mus musculus with 58 samples.

Results

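The comparison described here is the resting state of mouse embryonic stem (mES) cells that lack the demethylases KDM5A and KDM5B, read as all RNA counted in SLAM-seq libraries before any degradation of DPY30. Its members are the 5 of 58 libraries of the series that the labels give as 0 h of the DPY30–mAID line (3 libraries) and of the DPY30–mAID *Kdm5a/b* double-knockout line (dKO, 2 libraries). The parent cells are E14 mES cells grown in serum with LIF, in which both copies of *Dpy30* carry the mini auxin-inducible degron (mAID) and the auxin receptor OsTIR1 is inserted through a piggyBac vector. Both groups therefore carry the degron and OsTIR1, neither had received auxin, and every SLAM-seq library came from cells fed 100 µM 4-thiouridine (4SU), a labelled nucleoside that enters new RNA, for 60 min. In the dKO, *Kdm5a* was removed first and *Kdm5b* afterwards by Cas9, and 2 clones were kept; the labels do not say which clone gave which library. Further libraries served as points of reference: 3 SLAM-seq libraries of the RBBP5–FKBP line at 0 h and 2 Quant-seq libraries of DPY30–mAID cells at 0 h of retinoic acid in DMSO, which had no 4SU label, both with intact *Kdm5a* and *Kdm5b*, and the 2 dKO and 3 DPY30–mAID SLAM-seq libraries taken after 2 h of auxin.

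Methylation of histone H3 lysine 4 (H3K4) is written by SET1/COMPASS complexes and removed by the KDM1 and KDM5 families. KDM5 proteins act on the di- and trimethylated forms, which mark active promoters, and KDM5B is abundant in ES cells. Mammals have a further pair of KDM5 genes, one on each sex chromosome. Reads fell in 3′ UTR intervals and were summed per gene, and values are given as CPM, a gene's reads scaled to a library of 1000000 reads, a unit that compares a gene between libraries and not genes with each other.

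The alleles were made with 2 guides for each gene, shown because they define the dKO line. Their spacers, written 5′ to 3′ without the adjacent motif, were:
Kdm5a guide 1: gtgaagtcaggattaccacc
Kdm5a guide 2: gtaatgacaaggttgttaca
Kdm5b guide 1: gacttttttctttaaaatac
Kdm5b guide 2: gcatctgcctgcaaacaaag
None of the 4 matched an exon of its target gene in GENCODE vM21 over its whole length, and their genomic positions were not determined here. The counted reads lie in 3′ UTRs, so the *Kdm5a* and *Kdm5b* values below measure the 3′ end of whatever transcript remains and are not a check of the edited alleles.

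The libraries differed in more than genotype. The dKO libraries held 6799131 and 7792404 reads, against 2048085 to 2806821 in the DPY30–mAID libraries. Each read covered 11.3 T positions of the reference in both dKO libraries and 18.8 to 19.01 in the DPY30–mAID libraries, a measure that follows read length, and 33.3% and 34.3% of dKO reads were multi-mapping against 22.8% to 23.3%. The RBBP5–FKBP libraries resembled DPY30–mAID in this respect (18.4 to 18.99 T positions), whereas the Quant-seq libraries, at 11.6 and 11.5, resembled the dKO. Genotype, read length, depth and any shared preparation of the dKO libraries cannot be told apart in the 5 libraries alone, and values against all 3 reference groups are therefore given side by side.

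Of 9790 genes tested, 1164 were higher in the dKO (11.9%) and 1175 were lower (12.0%) than in DPY30–mAID cells, at an adjusted p below 0.05 in edgeR's quasi-likelihood test and a change of more than 1 on the log2 scale. Without dKO replicate 1 or dKO replicate 2, 733 and 731 genes were higher. Of the 9790 genes, 756 passed the minimum of 4 CPM only through the dKO, 354 of them called higher, and 481 only through DPY30–mAID, 231 of them called lower. Of the 8553 that passed it in both groups 810 were higher and 944 lower, with a median log2 fold change of −0.005. The median log2 fold change over all 9790 was 0.03, with quartiles of −0.57 and 0.64. Against RBBP5–FKBP cells 1182 genes were higher (12.0%) and 1264 lower (12.8%), and against the Quant-seq libraries 1115 were higher (11.5%) and 1028 lower (10.6%). A similar number of differences was found without a change in genotype: in DPY30–mAID cells, the Quant-seq libraries had 1016 genes higher (10.5%) and 1057 lower (10.9%) than the SLAM-seq libraries. The RBBP5–FKBP and DPY30–mAID lines, both labelled with 4SU, differed in 263 genes one way (2.77%) and 298 the other (3.14%). The genes called the same way against each of the 3 groups numbered 247 higher (2.62%) and 237 lower (2.51%) of 9437 tested in all 3 comparisons. These comparisons share the dKO libraries, so they are not independent of each other, and 193 and 200 of these genes had at most 10% multi-mapping reads in both lines.

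**Figure D1:**
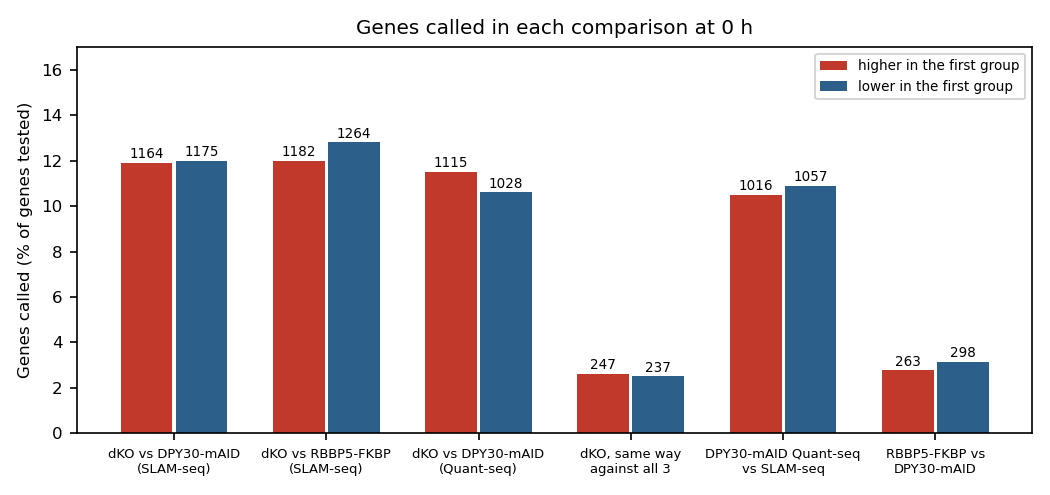
Genes called at 0 h, as a percentage of the genes tested (y axis), in 6 comparisons (x axis); red bars are genes higher and blue bars genes lower in the group named first, and the number over each bar is the count. The dKO bars lie between 10.6% and 12.8% against single groups and fall to 2.62% and 2.51% where all 3 groups had to give the same call. Quant-seq against SLAM-seq of DPY30–mAID cells gives 10.5% and 10.9%.

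The difference between the lines was present again 2 h into auxin treatment, in libraries that share no sample with those at 0 h. At 2 h, 1352 genes were higher (13.8%) and 1144 lower (11.7%) in the dKO than in DPY30–mAID cells. Among 9597 genes tested at both times, 826 were higher at both, which is 71.8% of the 1151 at 0 h and 63.1% of the 1310 at 2 h, and 824 were lower at both, 72.9% of 1130 and 73.9% of 1115. No gene was called in opposite directions (0 in edgeR with adjusted p, 0 with an unadjusted p below 0.05 and 0 in DESeq2). Of the genes called the same way against all 3 groups at 0 h, 216 of 244 that rose and 207 of 237 that fell were called in that direction at 2 h. The lines differed in T positions per read at 2 h as they did at 0 h, so genotype and library kind cannot be told apart there either.

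**Figure D2:**
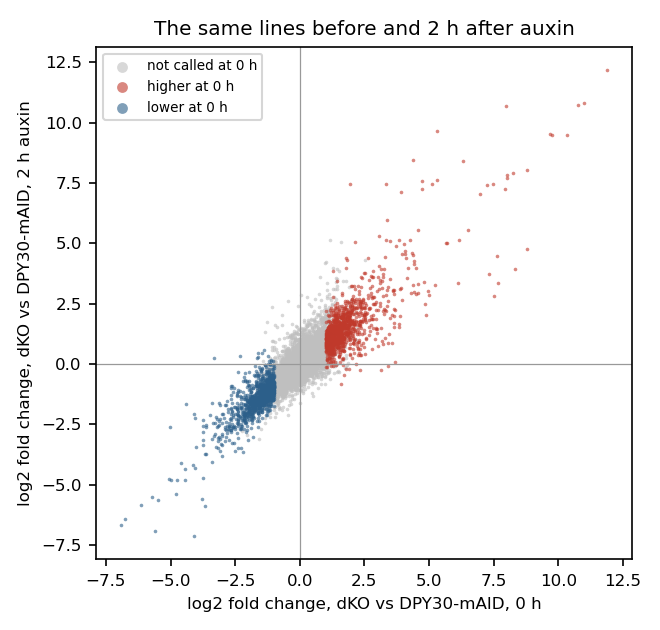
Log2 fold change of the dKO over DPY30–mAID cells at 0 h (x axis) and after 2 h of auxin (y axis), 1 point per gene, over 9597 genes; red and blue points are genes called higher and lower at 0 h and grey points those not called. The points lie along the diagonal, and none of the 1151 higher or 1130 lower genes was called the other way at 2 h.

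*Kdm5b* showed the clearest loss among the H3K4 demethylases and was lower against every group. It was at 151 and 109 CPM in the dKO, 906, 946 and 910.3 CPM in DPY30–mAID, 844, 678 and 772 CPM in RBBP5–FKBP and 343 and 299 CPM in the Quant-seq libraries. All reads came from 1 interval, chr1:134630811-134635285 (GRCm38, 3′ UTR, plus strand). The log2 fold change was −2.85 ± 0.14 (SE; edgeR adjusted p = 1.02e-09) against DPY30–mAID and −1.24 against Quant-seq. *Kdm5a* was at 26.0 and 27.5 CPM in the dKO and 105, 74.5 and 106 CPM in DPY30–mAID, a log2 fold change of −1.85 ± 0.20 (edgeR adjusted p = 2.52e-06). Against the Quant-seq libraries, at 46.1 and 40.9 CPM, the change was −0.63 and short of the fold threshold, although the dKO libraries lay below all 8 others at 0 h, as they did in 13.7% of all genes tested (above them in 16.3%). Most reads that remained in the dKO fell in the same 3 intervals that held most *Kdm5a* reads elsewhere. The last of the 3, chr6:120439194-120444574, held 92 and 131 reads. Replicate 2 of the dKO also had 1 and 3 reads in other intervals. Among reads with a T-to-C change, which come from RNA made during the 4SU pulse, the differences were larger in size, −4.50 for *Kdm5b* and −2.57 for *Kdm5a*. By this measure 767 of 6347 genes were higher (12.1%) and 835 lower (13.2%), but 64 higher and 4167 lower when scaled by the totals of all reads, of which 4.69% and 5.27% had a T-to-C change in the dKO and 15.3% to 16.1% in DPY30–mAID. The X-linked *Kdm5c* was at 59.6 and 64.0 CPM in the dKO and 94.7, 101 and 79.7 CPM in DPY30–mAID and did not pass the fold threshold (−0.59 ± 0.17). *Kdm5d* and the other Y-linked genes of the list were below the test's minimum, and 0 of them were tested.

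Genes of the H3K4 methylation list were lower more often than higher, and apart from *Kdm5b* none of these calls held against all 3 groups. Of 23 tested, 1 was higher (4.35%, against 11.9% of all genes) and 7 were lower (30.4%, against 12.0%), with a median log2 fold change of −0.60 against 0.03 over all genes. *Kdm1a*, which encodes the demethylase LSD1, was at 26.3 and 51.6 CPM in the dKO and 124, 147 and 163 CPM in DPY30–mAID (log2 fold change −1.91 ± 0.23), with Quant-seq between them at 73.9 and 73.9 CPM. *Dpy30*, the tagged subunit, was at 74.4 and 61.3 CPM against 154, 156 and 172 CPM in its parent line, and 22% of its dKO reads were multi-mapping. The methyltransferase genes *Setd1b* and *Kmt2d* (MLL4) changed by −1.37 and −1.02, but *Kmt2d* was 0.10 against Quant-seq and −0.82, with no call, without dKO replicate 1 (nor was it called without DPY30–mAID replicate 1 or DPY30–mAID replicate 2). *Wdr5*, a core subunit gene, was at 259.7 and 246 CPM against 461, 553 and 584 CPM, yet overlapped the RBBP5–FKBP libraries at 198, 339 and 326 CPM. *Ncoa6*, whose product is a partner of MLL3 and MLL4, was the gene that rose, from 32.7, 22.8 and 26.1 CPM to 88.4 and 81.6 CPM, with Quant-seq at 62.3 and 56.6 CPM. *Ash2l* and *Rbbp5*, which encode core subunits, had log2 fold changes of 0.72 and −0.06.

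**Figure D3:**
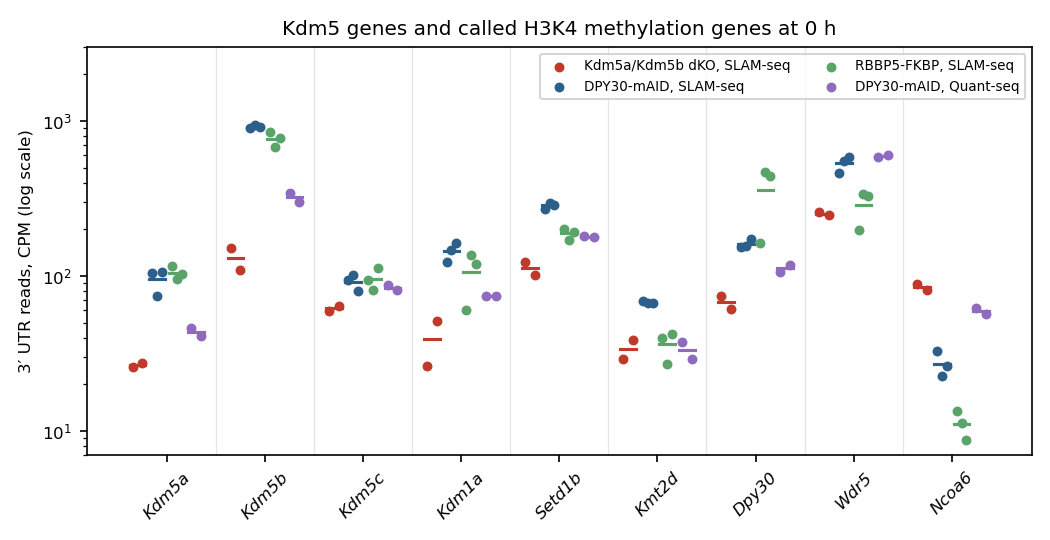
CPM (log y axis) of Kdm5a, Kdm5b, Kdm5c and the other called H3K4 methylation genes (x axis) in each 0 h library; points are libraries and horizontal bars group means. Kdm5b lies at 151 and 109 CPM in the dKO and above 299 CPM in every other library, whereas for Kmt2d the dKO overlaps RBBP5–FKBP and Quant-seq.

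The core pluripotency factors remained expressed in the dKO, with several of their partners at lower levels. Of 19 tested pluripotency genes, 0 were higher and 5 were lower in edgeR (0 and 5 both with an unadjusted p and in DESeq2). The lower share was 26.3%, against 12.0% of all genes. *Dppa3*, 1 of these 5, passed the minimum of 4 CPM only through DPY30–mAID. Of the 18 genes that passed it in both groups 4 were lower, where 944 of all 8553 such genes were. The list's median was −0.67 against DPY30–mAID, −0.45 against RBBP5–FKBP and −0.17 against Quant-seq. *Sox2* was at 739.9 and 715 CPM in the dKO and 957, 841 and 890.4 CPM in DPY30–mAID, and *Nanog* at 356 and 403 CPM and 514, 513 and 598 CPM; neither passed the fold threshold. *Pou5f1*, which encodes OCT4, was at 1228 and 1217 CPM and 979, 811 and 922 CPM, but over 97% of its reads were multi-mapping, and with uniquely mapped reads alone it was lower, at −3.14. *Utf1*, an ES cell chromatin factor gene, was the one that fell against all 3 groups: 185 and 210.3 CPM in the dKO, 806, 739 and 647 CPM in DPY30–mAID, 459, 393 and 405 CPM in RBBP5–FKBP and 589.9 and 496 CPM in Quant-seq (log2 fold change −1.91 ± 0.12, edgeR adjusted p = 1.43e-08). *Esrrb*, an orphan nuclear receptor of the naive network, fell from 620.1, 584 and 632 CPM to 268 and 252 CPM. *Klf2* was at 242 and 188 CPM against 363, 431 and 442 CPM (−0.96, not past the fold threshold). Against RBBP5–FKBP and Quant-seq *Klf2* was called lower, at −1.73 and −1.66. *Lin28a*, which encodes an RNA-binding inhibitor of let-7 maturation, fell by 1.93 on the log2 scale against DPY30–mAID and was at −0.50, short of the threshold, against Quant-seq. *Nr0b1* differed between the dKO libraries, at 42.4 and 133 CPM, and without dKO replicate 1 its change was −0.90 and no longer a call. *Klf4* and *Tbx3* had log2 fold changes of 0.16 and −0.07 against DPY30–mAID, while *Tbx3* was higher by 1.44 against RBBP5–FKBP. With unique reads the sign turned for *Klf4* (−0.51, short of the fold threshold), for which 49% of dKO reads were multi-mapping.

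Genes of the integrated stress response rose more often than they fell. This pathway, switched on by phosphorylation of eIF2α, raises the translation of ATF4, which with its partners turns on amino acid and stress genes. Of 22 tested genes, 10 were higher (45.5%, against 11.9% of all genes) and 2 lower (9.09%, against 12.0%), with a median of 0.90 (also 0.90 when *Atf3* was set to its lower bound), 1.97 against RBBP5–FKBP and 0.96 against Quant-seq. In DPY30–mAID cells the list had a median of −0.04 in Quant-seq over SLAM-seq. It was −1.16 in RBBP5–FKBP over DPY30–mAID. These 2 lines with intact *Kdm5a* and *Kdm5b* thus differed by more, in this median, than the dKO and its parent line. *Atf3*, *Chac1* and *Cebpb* passed the minimum of 4 CPM only through the dKO, and of the 19 others 7 were higher and 2 lower, with a median of 0.77. Of all 8553 genes that passed it in both groups 810 were higher and 944 lower. Against all 3 groups, 8 genes were higher, 5 of them having passed the minimum in both groups, and none lower, where 2.62% and 2.51% of all genes were. *Chac1*, a glutathione-degrading enzyme gene, was at 92.5 and 70.2 CPM in the dKO, 1.95, 0 and 9.06 CPM in DPY30–mAID, 1.39, 0 and 3.27 CPM in RBBP5–FKBP and 11.6 and 14.2 CPM in Quant-seq. *Ddit3*, which encodes CHOP, was at 60.6 and 56.2 CPM, 15.1, 7.13 and 2.90 CPM, 0, 1.75 and 1.09 CPM and 10.8 and 4.72 CPM in the same order. In both genes the dKO libraries were above all 8 others, as they were in 16.3% of all genes tested. Their log2 fold changes against DPY30–mAID were 4.39 ± 0.50 and 2.84 ± 0.37 (edgeR adjusted p = 4.47e-06 and 1.72e-05). *Trib3*, a pseudokinase gene induced by CHOP, rose from 32.7, 14.3 and 22.1 CPM to 119.7 and 115 CPM. *Atf3* was at 7.21 and 7.19 CPM in the dKO and had 0 reads in all 8 other libraries; against 3 reads over the DPY30–mAID group it was at least 18.3-fold higher. *Atf4* itself was at 1049 and 1034 CPM in the dKO and 287, 243 and 261 CPM in DPY30–mAID, but at 1013 and 799 CPM in Quant-seq, and *Nupr1* followed the same pattern. *Atf5* rose by 1.04, and *Sesn2*, *Cebpb* and *Vldlr* by 1.67, 4.55 and 1.69. *Atf5* was at 0.82 without DPY30–mAID replicate 3, and *Vldlr* at 1.55 (edgeR adjusted p = 0.0540) without dKO replicate 1. *Slc7a5* and *Pycr1*, for an amino acid transporter and a proline synthesis enzyme, were lower (−1.04 and −1.68), neither of them against RBBP5–FKBP. *Slc7a5* lost its call without dKO replicate 1, dKO replicate 2, DPY30–mAID replicate 1 or DPY30–mAID replicate 2 (adjusted p up to 0.202 in edgeR). *Asns*, the asparagine synthetase gene, was at 669 and 714 CPM against 466, 412 and 496 CPM and short of the threshold (0.57).

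**Figure D4:**
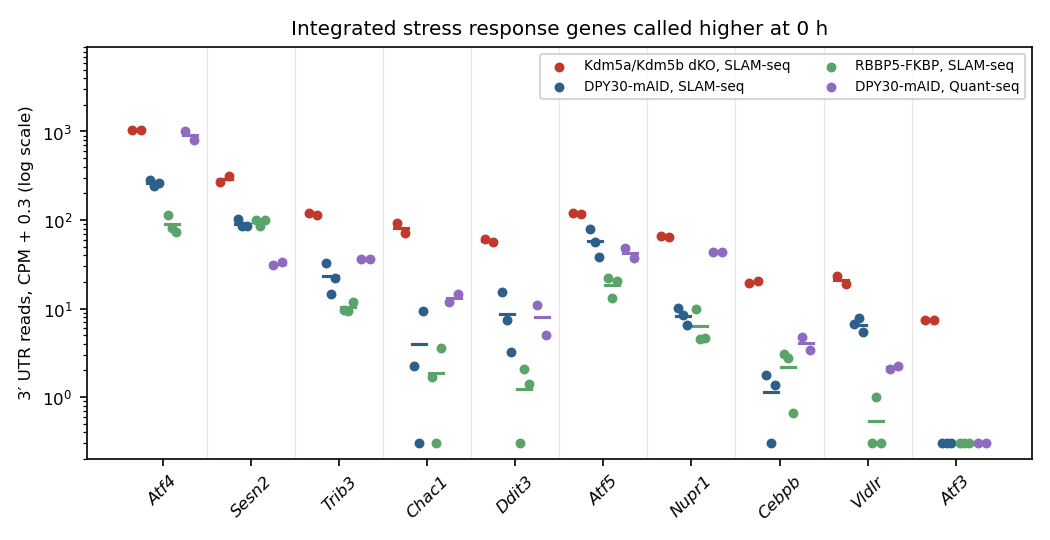
CPM with 0.3 added (log y axis) of the 10 integrated stress response genes called higher (x axis) in each 0 h library; points are libraries, bars group means, and points at the bottom are libraries with 0 reads. In all 10 the dKO libraries lie above the 8 others, by the least for Atf4, where Quant-seq reaches 1013 CPM. The 10 were picked as called higher in these dKO libraries, which lay above all 8 others in 16.3% of all genes tested.

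Promoters of some of these genes hold TGATGCAA, the letters of the composite C/EBP–ATF element. The sites are shown because the element is known from this pathway; each is 20 bases of RefSeq promoter sequence (GRCm38.p6), read 5′ to 3′ on the strand that holds the letters, with the 8 letters in capitals.
Atf3, chr1:191183430-191183449: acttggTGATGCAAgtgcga
Chac1, chr2:119351043-119351062: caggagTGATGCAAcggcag
Nupr1, chr7:126625567-126625586: cctgtcTGATGCAAtctggc
Vldlr, chr19:27216814-27216833: gagcgcTGATGCAActattg
Pycr1, chr11:120643838-120643857: tgtgtaTGATGCAAtgcaca
The sites in *Atf3* and *Nupr1* are on the plus strand and the others on the minus strand of the assembly. *Pycr1*, which was lower, holds the letters as well, so they did not mark direction within the list. Among 7930 tested genes with a promoter in the table (300 bases around the start site, both strands searched), 0.668% held TGATGCAA and 0.681% TGATGAAA, a second run of letters searched. The share was 1.70% of 940 promoters of genes higher in the dKO, 0.422% of 947 lower, and 3.96% (8 of 202) of those higher against all 3 groups, *Atf3*, *Chac1*, *Vldlr* and *Pik3c2g* among them, of which *Vldlr* alone passed the minimum in both groups. TGATGAAA was in 0.319% of the higher, 1.27% of the lower and 0.495% of those higher against all 3 groups. These shares describe genes grouped by the values above and were not tested. The number of CpG dinucleotides, a feature of promoters that carry H3K4me3, had a median of 23 over all tested promoters, 21.5 in genes higher and 23 in genes lower in the dKO.

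Several target genes of p53 rose while *Trp53* itself was lower. Of 23 tested, 10 were higher (43.5%, against 11.9% of all genes) and 2 lower (8.7%, against 12.0%), with a median of 0.82. Between Quant-seq and SLAM-seq of DPY30–mAID cells the median was −0.50. *Gdf15* passed the minimum only through the dKO, and 9 of the 22 others were higher, against 810 of all 8553 genes that passed it in both groups. Against all 3 groups 5 were higher, where 2.62% of all genes were. *Perp*, a desmosomal gene, was at 188 and 185 CPM in the dKO and 35.2, 38.8 and 48.2 CPM in DPY30–mAID, and *Pmaip1*, which encodes the BH3-only protein NOXA, at 42.8 and 41.8 CPM and 6.35, 2.85 and 10.1 CPM. *Sesn2* and *Ddit4*, for inhibitors of mTORC1 signalling, rose by 1.67 and 1.21, and *Sesn2* also belongs to the stress response list. *Trp53* was at 24.1 and 28.0 CPM in the dKO, 189, 146 and 190.2 CPM in DPY30–mAID and 106 and 101 CPM in Quant-seq (log2 fold change −2.77 ± 0.17); 39% of its dKO reads were multi-mapping, and with unique reads the change was −3.38. *Cdkn1a*, the p21 gene, was lower against DPY30–mAID (−1.68) and at −0.31 against Quant-seq.

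Cytosolic ribosomal protein genes were more often higher than lower when all reads were counted, and more often lower than higher when reads that map to several places were left out. Of 75 tested with all reads, 25 were higher (33.3%, against 11.9% of all genes) and 5 lower (6.67%, against 12.0%), with a median of 0.77, and 1.00 against Quant-seq. Of the 71 that passed the minimum in both groups 24 were higher and 4 lower. Against all 3 groups 16 were higher and 1 lower of 74, where 2.62% and 2.51% of all genes were. With uniquely mapped reads 11 of 70 were higher (15.7%, against 12.6% of all genes) and 21 lower (30%, against 12.2%), with a median of −0.32. Most of these genes have processed copies elsewhere in the genome, and more dKO reads were multi-mapping: *Rpl34* rose by 2.44 with all reads and was lower, at −3.46, with unique reads. *Rpl4* and *Rps3* were picked from the most abundant called rises with few such reads, so they do not speak for the list. With unique reads they were at 1.80 and 1.65. *Rpl4*, with at most 4% multi-mapping reads, was at 7443 and 8247 CPM in the dKO, 2374, 2194 and 2247 CPM in DPY30–mAID, 1891, 2127 and 2159 CPM in RBBP5–FKBP and 1883 and 1737 CPM in Quant-seq (log2 fold change 1.76 ± 0.09). *Rps3* was at 2469 and 3475 CPM in the dKO and 1081, 857 and 1045 CPM in DPY30–mAID. Among respiratory chain genes 11 of 72 were higher (15.3%, near the share of all genes) and 3 lower (4.17%). With unique reads 7 and 7 of 69 were (10.1% each). The splicing cofactor gene *Rbm39* rose from 505, 475 and 548 CPM to 1255 and 1321 CPM, and was also higher against both other groups. *Cox6c*, a cytochrome oxidase subunit gene, and *Hint1*, for a nucleotide-binding protein, completed the 5 most abundant rises (1.95 and 1.09). Against Quant-seq they were at 0.96 and 0.06, both short of the fold threshold, as was *Hint1* against RBBP5–FKBP (0.50).

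Germline genes, which are silenced in ES cells mainly by DNA methylation and the PRC1.6 complex, were in part higher in the dKO. Of 16 tested, 7 were higher and 0 lower in edgeR (8 and 1 with an unadjusted p, 7 and 0 in DESeq2), so that 43.8% were higher, against 11.9% of all genes. The median was 1.02 against DPY30–mAID, 3.46 against RBBP5–FKBP (also with members at 0 reads set to their lower bounds) and 0.90 against Quant-seq, while RBBP5–FKBP itself stood at −2.05 to DPY30–mAID. Against all 3 groups 2 were higher, where 2.62% of all genes were. *Mael*, for a piRNA pathway protein, was at 91.6 and 92.4 CPM in the dKO, 11.2, 11.8 and 15.2 CPM in DPY30–mAID, 0.924, 5.61 and 5.08 CPM in RBBP5–FKBP and 13.0 and 15.3 CPM in Quant-seq (log2 fold change 2.82 ± 0.21, edgeR adjusted p = 5.93e-08). *Brdt* and *Fkbp6* passed the minimum of 4 CPM only through the dKO, and of the 12 genes that passed it in both groups 5 were higher, with a median of 0.76. Over all genes 810 of the 8553 that passed it in both groups were higher. *Stk31* was at 13.2 and 15.0 CPM against 7.81, 2.49 and 2.17 CPM, and *Ddx4*, the vasa homologue, at 17.2 and 20.1 CPM against 10.7, 6.77 and 7.61 CPM. *Stra8*, a gatekeeper of meiosis taken from the retinoid list and not counted among these 16, was at 83.0 and 62.8 CPM in the dKO, 6.35, 2.14 and 5.07 CPM in DPY30–mAID and 18.4 and 18.1 CPM in Quant-seq, with 0 reads in RBBP5–FKBP. *Brdt*, *Tdrkh* and *Fkbp6* were at 6.18 and 4.75 CPM, 14.1 and 15.8 CPM and 6.47 and 6.16 CPM in the dKO, and *Rpl10l*, a testis ribosomal protein gene, was lower than in Quant-seq (−0.99). With dKO replicate 1 or dKO replicate 2 left out, which leaves 1 dKO library, the calls of *Stk31*, *Ddx4*, *Tdrkh* and *Fkbp6* were lost (adjusted p between 0.0607 and 0.203 in edgeR), as was that of *Brdt* without dKO replicate 1 (0.0702). Their log2 fold changes were then between 1.02 for *Ddx4* and 3.43 for *Brdt*, still past the fold threshold. The 2-cell-like list had 0 of its genes above the test's minimum. Of 5 tested *Hox* genes, *Hoxa5* (4.56 and 4.62 CPM) and *Hoxb4* (9.12 and 3.98 CPM) were above their level in each of the 3 other groups, where they were below 1 CPM, and passed the minimum only through the dKO.

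Genes that fell against all 3 groups came from several classes. *Phlda2*, an imprinted placental growth gene, was at 80.7 and 61.5 CPM in the dKO, 433, 538 and 389 CPM in DPY30–mAID, 992, 1059 and 1139 CPM in RBBP5–FKBP and 459 and 379 CPM in Quant-seq (log2 fold change −2.70 ± 0.16). *Trim28*, which encodes the KAP1 corepressor of retroelements, was at 880.3 and 795 CPM against 2836, 2654 and 2536 CPM, and *Uhrf1*, the cofactor of DNMT1, at 166 and 146 CPM against 323, 322 and 280.4 CPM. Of 17 tested DNA methylation genes 1 was higher (5.88%) and 4 lower (23.5%), against 11.9% and 12.0% of all genes. *Tet1* fell by 2.23, and its Quant-seq level of 206 and 166 CPM was close to the dKO level of 121 and 132 CPM. Both metallothionein genes tested fell: *Mt1* was at 437 and 424 CPM in the dKO, 2368, 2021 and 2216 CPM in DPY30–mAID and 981 and 1036 CPM in Quant-seq, and *Mt2* fell by 1.66 but was at −0.63 and no call against Quant-seq. Of 22 cholesterol genes 0 were higher and 8 lower in edgeR, as with an unadjusted p and in DESeq2. The lower share was 36.4%, against 12.0% of all genes, and the medians were −0.58, −1.44 and −0.77 against the 3 groups. *Mvd*, for an enzyme of the pathway, was called lower against all 3. *Uhrf1* and *Mvd* lay near the fold threshold: *Mvd* was at −0.997 without DPY30–mAID replicate 1 and *Uhrf1* between −0.925 and −0.958 without DPY30–mAID replicate 1, DPY30–mAID replicate 2 or dKO replicate 2, neither of them a call. *Ccnd2*, the cyclin D2 gene, fell from 91.8, 89.4 and 93.5 CPM to 22.8 and 18.99 CPM, whereas the G1/S and G2/M lists had medians of 0.02 and 0.07. Of 34 pausing, elongation and Integrator genes, 1 was higher (2.94%) and 7 were lower (20.6%), against 11.9% and 12.0% of all genes. *Leo1*, a PAF1 complex gene, was at 111 and 119.6 CPM against 27.3, 28.5 and 41.3 CPM. *Supt6* and *Ints9* changed by −1.37 and −1.38, and all 3 went in the same direction against each group. *Hsp90ab1*, an abundant chaperone gene, was at 2227 and 1959.9 CPM against 6625, 6651 and 5782 CPM, and the small heat shock gene *Cryab* rose from 11.2, 5.34 and 8.33 CPM to 60.6 and 76.0 CPM.

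Markers of other cell types were called in both directions. Of 12 primitive endoderm genes 2 were higher and 2 lower, near the 11.9% and 12.0% of all genes. Of the 9 that passed the minimum in both groups 1 was higher and 2 were lower. *Col4a1*, a basement membrane collagen gene, was higher against all 3 groups (1.28 against DPY30–mAID) and *Apoe* lower (−1.99). Of 14 neural genes 2 were higher (14.3%) and 6 lower (42.9%). *Pax6*, 1 of these 6, passed the minimum only through DPY30–mAID. Of the 11 neural genes that passed it in both groups 5 were lower, where 944 of all 8553 such genes were. *Crabp1*, which binds retinoic acid, was lower against all 3 groups (25.3 and 19.5 CPM against 133, 89.1 and 101 CPM). Of 13 trophectoderm and simple epithelial genes 1 was higher and 5 were lower (38.5%), with a median of −0.65. The gene that rose, *Cdx2*, passed the minimum only through the dKO and was at 3.44 but no call without dKO replicate 1. *Cldn6*, 1 of the 5 lower genes, passed it only through DPY30–mAID. Of the 8 that passed it in both groups 4 were lower. By its median this list was lower still in Quant-seq than in SLAM-seq libraries of DPY30–mAID cells. Among 10 fibroblast markers *Thy1* alone was tested, and it passed the minimum only through the dKO. It was at 18.4 and 22.5 CPM in the dKO, 0.977, 1.78 and 1.81 CPM in DPY30–mAID and 44.3 and 35.0 CPM in Quant-seq.

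**Figure D5:**
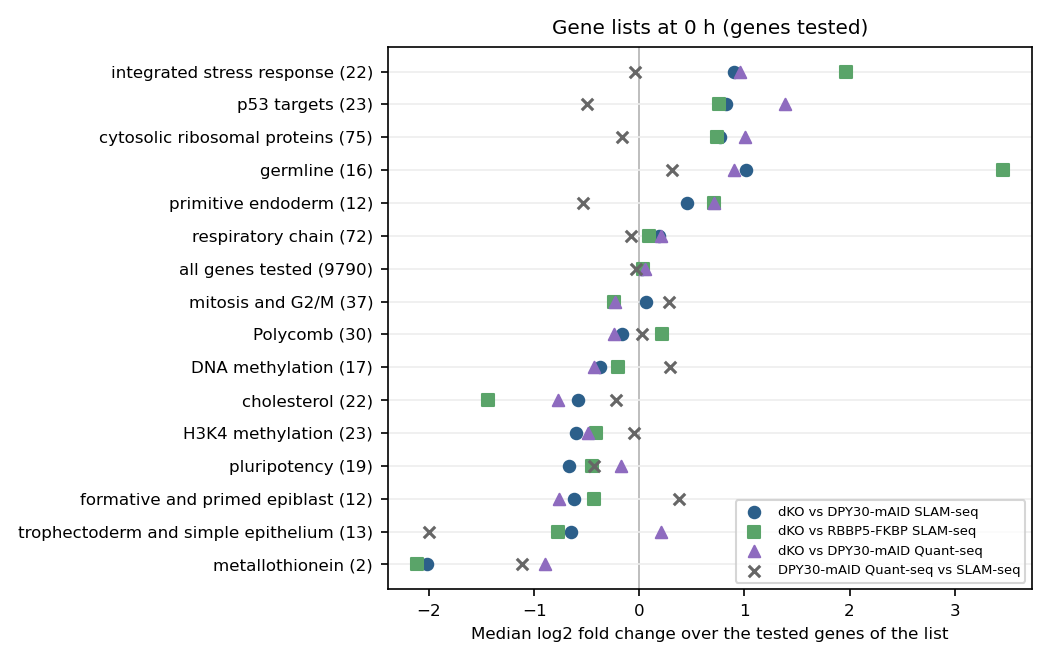
Median log2 fold change (x axis) over the tested genes of 16 sets (y axis, number tested in brackets, all genes tested included), with all reads counted. Circles, squares and triangles are the dKO against DPY30–mAID, RBBP5–FKBP and Quant-seq, and crosses are Quant-seq over SLAM-seq of DPY30–mAID cells. The stress response, p53 and germline sets lie right of 0.7 for all 3 references, as does the ribosomal protein set, whose calls turn with unique reads, and the trophectoderm set changes side between −0.77 and 0.20.

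The largest rises were taken among genes at 20 CPM or more, with at most 10% multi-mapping reads and groups that did not overlap. They belonged to genes with next to no reads in DPY30–mAID, and the 10 largest passed the minimum of the test only through the dKO. *Cdh11*, not ranked here, averaged 108 CPM in the dKO with 0 reads in DPY30–mAID and RBBP5–FKBP. It was at least 274-fold higher than 3 reads over the DPY30–mAID group. *Olfr980*, an olfactory receptor gene, was at 48.4 and 65.8 CPM in the dKO with 0 reads in DPY30–mAID and RBBP5–FKBP and 8.51 and 9.04 CPM in Quant-seq, at least 145-fold higher than 3 reads over the DPY30–mAID group. *Pik3c2g* was at 43.7 and 30.0 CPM, with 0 reads in the same groups and 0 and 9.83 CPM in Quant-seq, at least 93.6-fold higher. *Olig1*, a neural transcription factor gene, was at 73.1 and 88.2 CPM in the dKO, 1.95, 3.56 and 4.71 CPM in DPY30–mAID and 0 and 0.393 CPM in Quant-seq, with 0 reads in RBBP5–FKBP. *Anxa3* and *Fbp2* (26.9 and 25.0 CPM and 24.9 and 19.8 CPM) were also higher against all 3 groups. Other large rises were not calls against every group. *Rftn2* was at 152 and 128 CPM in the dKO and 0, 0 and 0.362 CPM in DPY30–mAID. In Quant-seq it was at 454 and 419 CPM. *Hormad2* was at 23.4 and 23.7 CPM in the dKO, above all 8 others, as 16.3% of all genes tested were. It was short of the fold threshold against Quant-seq at 16.1 and 14.5 CPM. *Lefty1*, a Nodal inhibitor gene, was at 37.4 and 32.0 CPM in the dKO and 42.9, 25.2 and 24.0 CPM in RBBP5–FKBP.

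The largest fall showed the same limit. *Hist1h2ae*, a histone H2A gene, was at 3.82 and 4.49 CPM in the dKO, 335, 280.4 and 268 CPM in DPY30–mAID and 564, 413 and 338 CPM in RBBP5–FKBP (log2 fold change −6.15 ± 0.20), and at 4.48 and 4.32 CPM in Quant-seq, where the difference was −0.01. *Cldn6* and *Cldn4*, tight junction genes, and *Rbm8a2* were likewise low in Quant-seq. *Apba3* fell from 49.8, 47.0 and 33.3 CPM to 1.18 and 3.85 CPM, and *Actl6a*, *Nr1d1* and *Spindoc* by 4.01, 3.40 and 3.27. These 4 were lower against every group. Of these, *Apba3*, *Actl6a* and *Nr1d1* averaged 2.51, 1.43 and 3.06 CPM in the dKO and so passed the minimum only through DPY30–mAID. *Cldn6*, *Rbm8a2*, *Zic2* and *Dcxr* did so as well. *Spindoc* encodes a partner of SPIN1, a reader of H3K4me3, and *Nr1d1* a circadian repressor. *Zic2* and *Dcxr* were at 1.62 and 1.67 CPM and 2.21 and 1.28 CPM in the dKO. Of the most abundant falls, *Tubb5*, a tubulin gene, was at 1192 and 1069 CPM against 2336, 2472 and 2019.9 CPM, with values above −1 and no call without DPY30–mAID replicate 1, DPY30–mAID replicate 2 (−0.947) or dKO replicate 2.

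No chromosome moved as a whole between the dKO and its parent line. Chromosome medians ran from −0.18 on chromosome 19 to 0.25 on chromosome 14. The RBBP5–FKBP line, however, stood at 0.57 on chromosome 8 and −0.60 on chromosome 15 relative to DPY30–mAID, so that the dKO had medians of −0.63 and 0.70 on these chromosomes against it. Values against RBBP5–FKBP for genes there, such as *Mt1*, *Klf2* and *Mvd* on chromosome 8 and *Atf4* on chromosome 15, include this difference between lines.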

How the data were processed

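Per the file headers, reads of SLAM-seq and Quant-seq libraries were counted per 3′ UTR interval by the authors with SlamDunk (for Quant-seq the methods name HISAT2 and featureCounts instead), and the deposited values are raw read counts with the number of multi-mapping reads, reads with T-to-C changes and T positions covered. The submitters' notes name the mm10 build; the methods give single-end reads of 75 or 45 bases without saying which library had which. The 46420 intervals were summed to 20177 genes, all named in GENCODE vM21. Depth was 2048085 to 7792404 reads per library at 0 h. Groups followed the labels. The dKO was tested against DPY30–mAID cells in edgeR 4.0.16 (R 4.3.3; TMM, quasi-likelihood, 2 against 3 libraries) keeping genes that averaged 4 CPM or more in 1 of the groups, and, for reads with T-to-C changes, 10 or more such reads, with Benjamini–Hochberg adjustment over all genes tested. The other comparisons used the same test. A self-test on simulated counts, with a log2 change of 2 given to 200 of 9790 genes, recovered 90.0% of them in the dKO comparison. Lists are described by counts and medians. Beside the Kdm5, H3K4 methylation and pluripotency genes, the text names called members of other lists and the 10 largest and 5 most abundant calls in each direction among genes at 20 CPM or more with at most 10% multi-mapping reads, and it leaves out some of these. The libraries, gene lists and comparisons were chosen with earlier results of these data known. The labels call the libraries replicates without naming separate cultures, so p-values measure the spread between these libraries. Alternatives were DESeq2 1.42.0, other scalings and filters, unique reads, thinned depth, single intervals, a replicate block, other reference groups and leaving out each library. Promoter letters were searched in RefSeq promoters (GRCm38.p6).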

Additional observations from a re-analysis of the deposited data

Results flagged for a closer look

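*Cops7a*, a subunit gene of the COP9 signalosome, was the 1 gene of 9995 whose difference between the lines itself differed between 0 h and 2 h of auxin, by a test of the interaction in edgeR (log2 difference −1.70, adjusted p = 0.0246). It was at 35.7 and 51.2 CPM in the dKO and 58.6, 69.8 and 66.7 CPM in DPY30–mAID cells at 0 h, and at 71.1 and 77.5 CPM against 37.0, 35.9 and 32.8 CPM at 2 h. The groups did not overlap at either time, with the order turned; of the 9995 genes 52.1% had groups that did not overlap at both times, and 0.89% also had the order turned. An unadjusted p below 0.05 was reached by 807 genes (8.07%).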

How the results depend on the processing

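With a mean of at least 20 CPM, 769 genes were lower in the dKO, since fewer genes were tested, and asking for the same call against each of 3 groups, an alternative added after seeing the data, left 247 higher and 237 lower. Leaving out each library gave 731 to 1296 higher and 910 to 1170 lower genes; the lowest counts of higher genes, 731 and 733, came without dKO replicate 2 and dKO replicate 1, when the lone dKO library was assumed to vary like the DPY30–mAID ones. By T-to-C reads, scaling with the totals of all reads gave 64 higher and 4167 lower, in place of 767 and 835; the share of T-to-C reads was 4.69% and 5.27% in the dKO and 15.3% to 16.1% in DPY30–mAID. Against Quant-seq, *Kdm5a* was at −0.63, below the fold threshold, and the sign turned for *Kmt2d* (0.10), *Rpl10l* (−0.99), *Fkbp6* (−0.070), *Rftn2* (−1.58), *Thy1* (−0.88), *Cdkn1c* (−1.05) and *Jade1* (0.59). *Tbx3* was 1.44 against RBBP5–FKBP. With unique reads *Pou5f1* was −3.14 and *Rpl34* −3.46. For these the cause was not tested. The other settings kept both counts within 1.5 times. DESeq2 gave 1029 higher and 1141 lower genes and the same calls for all 118 genes tested singly.

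With the replicate block 1219 genes were higher and 1103 lower, and 1375 and 1130 at 2 h; same-numbered libraries had correlations of deviations of 0.03 and 0.02, so the numbers were not taken as pairs. The 2 dKO libraries give the dKO 1 degree of freedom of its own, and genes under 4 CPM in both groups, such as the 2-cell-like list, were left out by choice of filter; with no filter 1544 genes were higher and 1126 lower.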

Other observations

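Imprinted genes were called in both directions. Of 21 tested, 2 were higher (9.52%) and 6 lower (28.6%, *Phlda2* among them), against 11.9% and 12.0% of all genes tested, with a median of −0.30 against DPY30–mAID and 0.41 against Quant-seq. Of the 18 that passed the minimum in both groups 2 were higher and 5 lower. *Sfmbt2* was at 125 and 90.7 CPM in the dKO, 8.30, 17.8 and 30.4 CPM in DPY30–mAID, 42.5, 68.7 and 62.5 CPM in RBBP5–FKBP and 9.85 and 9.04 CPM in Quant-seq, while *Cdkn1c* was at 79.4 and 71.6 CPM in the dKO and 154 and 173 CPM in Quant-seq. Hypoxia and glycolysis genes were 4 higher and 5 lower of 29 (13.8% and 17.2%), near those shares of all genes. With unique reads 3 of 27 were higher and 8 lower (29.6%, against 12.2% of all genes). Of the 28 that passed the minimum in both groups with all reads, 4 were higher and 4 lower. *Vegfa*, an angiogenic growth factor gene, was higher (1.13) and the glycolytic gene *Aldoc* lower (−1.29), both against all 3 groups. *Aldoc* lost its call without dKO replicate 2, at −1.07. *Gapdh* was also lower (−2.01), with nearly all of its reads multi-mapping. Among immediate early genes, *Dusp6*, which encodes an ERK phosphatase, was at 544 and 667 CPM in the dKO and 258, 298 and 281 CPM in DPY30–mAID, and was higher against all 3 groups (0.93, below the fold threshold, without dKO replicate 2). Of 12 interferon and antigen presentation genes 1 was higher (8.33%) and 5 lower (41.7%), against 11.9% and 12.0% of all genes. With unique reads 3 and 6 of 13 were (23.1% and 46.2%, against 12.6% and 12.2% of all genes). Among the lower ones was *Ifitm1* (−2.51 with all reads), for which 81% of dKO reads were multi-mapping.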
